A study of Mus musculus with 9 samples.

Results

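Prnd and Prnp are neighbouring genes of the prion gene family on mouse chromosome 2, and these 2 genes were described out of 23744 genes in the table. They were taken as the rows of that name in the deposited gene tables, together with the splice junctions between the start of Prnp and the end of Prnd. They were chosen by the measured CPM of Prnd over these same samples, so their levels are a description and carry no test. The cells were of MS1, a line of mouse pancreatic endothelium, in 3 groups of 3 samples. Control cells carried the lentiviral vector pCDH-puro, a second group stably expressed TAZ4A (vector pCDH-TAZS4A), and the last group stably expressed the fusion TAZ-CAMTA1 (vector pCDH-TAZ-CAMTA1). TAZ, the product of Wwtr1, is a co-activator that works with the TEAD transcription factors. TAZ4A has serines that the Hippo kinases phosphorylate changed to alanine, and TAZ-CAMTA1 is the fusion oncoprotein found in epithelioid hemangioendothelioma, a cancer of blood vessels. All groups share a single cell line, the labels name no separate cultures behind the samples, and p-values then measure only the spread between these samples.

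Prnp encodes the cellular prion protein, a surface glycoprotein held in the membrane by a glycosylphosphatidylinositol (GPI) anchor and made by many cell types, neurons above all. Its misfolded form is the agent of prion disease. Prnd encodes Doppel, a GPI-anchored relative that lacks the repeat region of the prion protein and is best known from the testis, with transient expression in the endothelium of the newborn brain. In some Prnp-knockout mouse lines, transcripts that start at the Prnp promoter skip the deleted Prnp exon, splice into Prnd and drive Doppel in the brain. The annotation holds such read-through transcripts as a gene of its own, Prn, so a higher Prnd value can in principle come from the start of Prnd or from that of Prnp.

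On GRCm38 the Prnp gene (ENSMUSG00000079037) lies at chr2:131909928-131938429 and Prnd (ENSMUSG00000027338) at chr2:131950861-131956130, both on the plus strand. The end of Prnp and the start of Prnd are 12431 bases apart, and their starts are 40933 bases apart. Prnp-201 has 2 short exons and a long last exon that holds the whole coding sequence. Prnd has 2 alternative first exons, whose starts are 176 bases apart, and both join the same coding exon. Prn-202 joins the first 2 Prnp exons to an exon of 103 bases between the genes and from there to the Prnd coding exon. The joints that tell these transcripts apart are printed as 30 bases each, read from the GENCODE vM21 transcripts, with the first 15 bases of the downstream exon in capitals.

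Prnp-201 exon 2 to 3: agagccaagcagactATCAGTCATCATGGC
Prn-202 exon 3 to 4: cgcttcgcgcaccggATTCACCATGAAGAA
Prnd-204 exon 1 to 2: tagcagagaaccgagATTCACCATGAAGAA
Prnd-201 exon 1 to 2: tgctactgggaaatgATTCACCATGAAGAA

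The last 3 share their capitals because they enter the same Prnd coding exon, whose start codon ATG lies within those bases. A read with the left part of the Prn sequence lies on the Prn exon between the genes. A read with the left part of either Prnd sequence lies on a first exon of Prnd. Neither by itself shows whether the transcript began upstream of that exon.

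Reads assigned to genes numbered 22817562 to 35491338 per library. CPM stands for the deposited reads of a gene relative to a scaled library size, and 0 reads leave room for 0.0849 to 0.134 CPM, the worth of 3 reads. TAZ-CAMTA1 replicate 2 stood apart, with a correlation of log2 values of 0.967 and 0.968 to the others of its group, against at least 0.996 within every other pair. In that library 30.6% of junction reads mapped to several places, against 20.8% to 22.2% in the others, and the values that it moves most are also given without it. Wwtr1 was at 532 ± 17.8, 314 ± 8.04 and 419 ± 93.4 CPM (SD, n = 3) in the control, TAZ4A and TAZ-CAMTA1 groups, and the last was 473 without replicate 2. The mean was lowest with TAZ4A, and the TAZ-CAMTA1 libraries (476, 311 and 470 CPM) also lay below the control range of 519 to 552 CPM. Both go against the labels if the TAZ part of the constructs is mouse, and its species is not stated. Camta1 was at 4.90 ± 0.825, 5.49 ± 0.267 and 13.5 ± 0.455 CPM. Of 10 endothelial markers, 9 were at 0.5 CPM or more in every library and Cldn5 was not, and their summed level was 9322 to 9635, 6387 to 6577 and 8263 to 10620 CPM. None of the 4 male germ cell and Sertoli cell markers in the table reached 0.5 CPM in all libraries of a group, and their sum was at most 0.651 CPM. Of 5 neuronal markers, only Nefl reached it.

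Prnd was almost silent in control MS1 cells, was detected at an intermediate level with TAZ4A and was at its highest with TAZ-CAMTA1. It measured 0.804, 1.07 and 1.18 CPM in control replicates 1 to 3, from 18, 37 and 39 reads. It measured 8.45, 8.09 and 9.55 CPM with TAZ4A, from 282, 286 and 322 reads. With TAZ-CAMTA1 it measured 61.4, 50.9 and 63.5 CPM, from 2056, 1598 and 1521 reads. No library of one group reached into the range of another, and TAZ-CAMTA1 replicate 2 was the lowest of its group. Means were 1.02 ± 0.195, 8.70 ± 0.757 and 58.6 ± 6.73 CPM (SD, n = 3).

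The mean of Prnd was 8.54 times the control mean with TAZ4A and 57.5 times with TAZ-CAMTA1 (61.3 times without replicate 2). TAZ-CAMTA1 stood 6.74 times above TAZ4A (7.18 times without replicate 2). The lowest TAZ4A library was 6.84 times the highest control library, and the lowest TAZ-CAMTA1 library was 5.34 times the highest TAZ4A library. On the scale of log2(CPM + 0.5) the differences were 2.60, 5.28 and 2.68 (SE 0.13 each) for TAZ4A and then TAZ-CAMTA1 against control, and for TAZ-CAMTA1 against TAZ4A. This scale understates the rise of a gene near 0. The authors' deposited table gives log2 fold changes of 3.06, 5.82 and 2.75 for Prnd. Among 13346 genes tested, its difference ranked 83rd, 2nd and 12th from the top. In these comparisons 24.2%, 31% and 36.6% of all genes tested passed the limma test at an adjusted p of 0.05, which is background to every count below and is not read against Prnd itself. In bulk RNA, more cells with Prnd and more Prnd RNA per cell cannot be told apart.

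Prnp was an abundant transcript in every library and varied little. It measured 237, 241 and 233 CPM in control, and 234, 233 and 239 CPM with TAZ4A. It measured 273, 271 and 280 CPM with TAZ-CAMTA1. Control and TAZ4A overlapped, while each TAZ-CAMTA1 library lay above all 6 others. Means were 237 ± 4.00, 236 ± 2.98 and 275 ± 4.65 CPM, so TAZ-CAMTA1 was 1.16 times control and 1.17 times TAZ4A (1.17 times each without replicate 2). The log2 differences were −0.01, 0.21 and 0.22 (SE 0.06 each), in the order used for Prnd. In deposited TPM, which scales for transcript length, Prnp in TAZ-CAMTA1 replicate 2 was 303.7 and lay just below the control range of 304.3 to 305.4, while the other TAZ-CAMTA1 libraries were at 361 and 375.

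**Figure D1:**
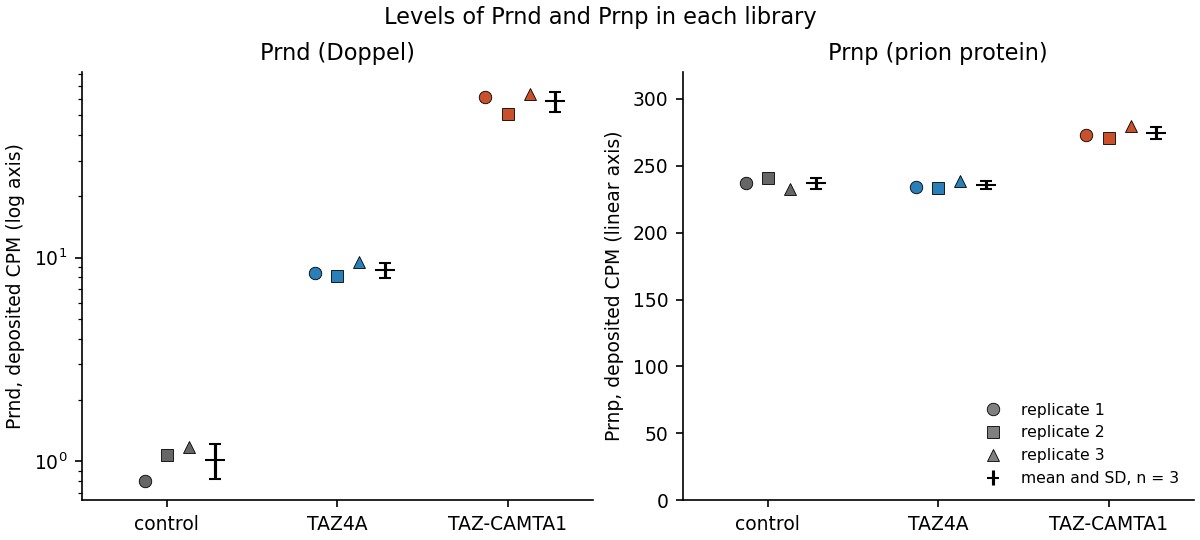
Deposited CPM of Prnd (left, log axis) and Prnp (right, linear axis from 0) in each of the 9 libraries; symbols mark the replicate number and bars the mean and SD of 3. Prnd steps from about 1.02 to 8.70 to 58.6 CPM without overlap, while Prnp stays between 233 and 280 CPM.

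Per length, Prnp remained the more abundant of the pair in every library. Prnd in TPM was 0.247%, 0.324% and 0.370% of Prnp in control. It was 2.63%, 2.53% and 2.91% of Prnp with TAZ4A. With TAZ-CAMTA1 it was 16.4%, 13.7% and 16.6% of Prnp. The group means of this ratio were 0.314 ± 0.0621%, 2.69 ± 0.199% and 15.6 ± 1.61%. The iGenomes gene table of the same libraries held the same numbers of Prnd reads, with means of 1.05, 8.99 and 61.1 CPM, and Prnp means of 246, 244 and 287 CPM.

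Junction reads bear on where Prnd transcripts start, and they were few. Unique junction reads numbered 6410070 to 9889541 per library over the whole genome. With TAZ-CAMTA1, 9 unique reads entered the Prnd coding exon from a first exon of Prnd, 4 from the first and 5 from the second, and 0 came from the Prn exon. That is 100% from the first exons of Prnd, with a 95% Wilson interval of 70.1% to 100%, which covers counting error only. The 9 reads came from replicate 1 (6 reads) and replicate 3 (3 reads), and replicate 2 had 0. With reads that map to several places added, 16 of 18 came from the first exons of Prnd (88.9%, 67.2% to 96.9%), and the other 2 came from the Prn exon. Those 2 reads overhang the joint by at most 1 base, and 2 of the 16, in replicate 2, by at most 2 bases. With joints counted only where a library's longest overhang was 20 bases or more, 8 of 8 reads came from the first exons of Prnd (67.6% to 100%).

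With TAZ4A a single unique read entered the Prnd coding exon, from the second first exon of Prnd, and 0 came from the Prn exon. In control the direction was the other way: 0 reads came from a Prnd first exon and 2 came from the Prn exon. With 1 and 2 reads, the share has a Wilson interval of 20.7% to 100% in TAZ4A and 0% to 65.8% in control, so no order of these groups can be read from it. The joint from Prnp exon 2 into the Prn exon held 1 unique read in the control group, 0 with TAZ4A and 1 with TAZ-CAMTA1, with overhangs of at most 2 and 6 bases. The 2 control reads from the Prn exon reach an overhang of 20 bases. The read-through joints thus held 0 to 2 unique reads per joint and group, some of which barely cross it, while the Prnd row went from 94 to 890 to 5175 reads summed over 3 libraries.

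**Figure D2:**
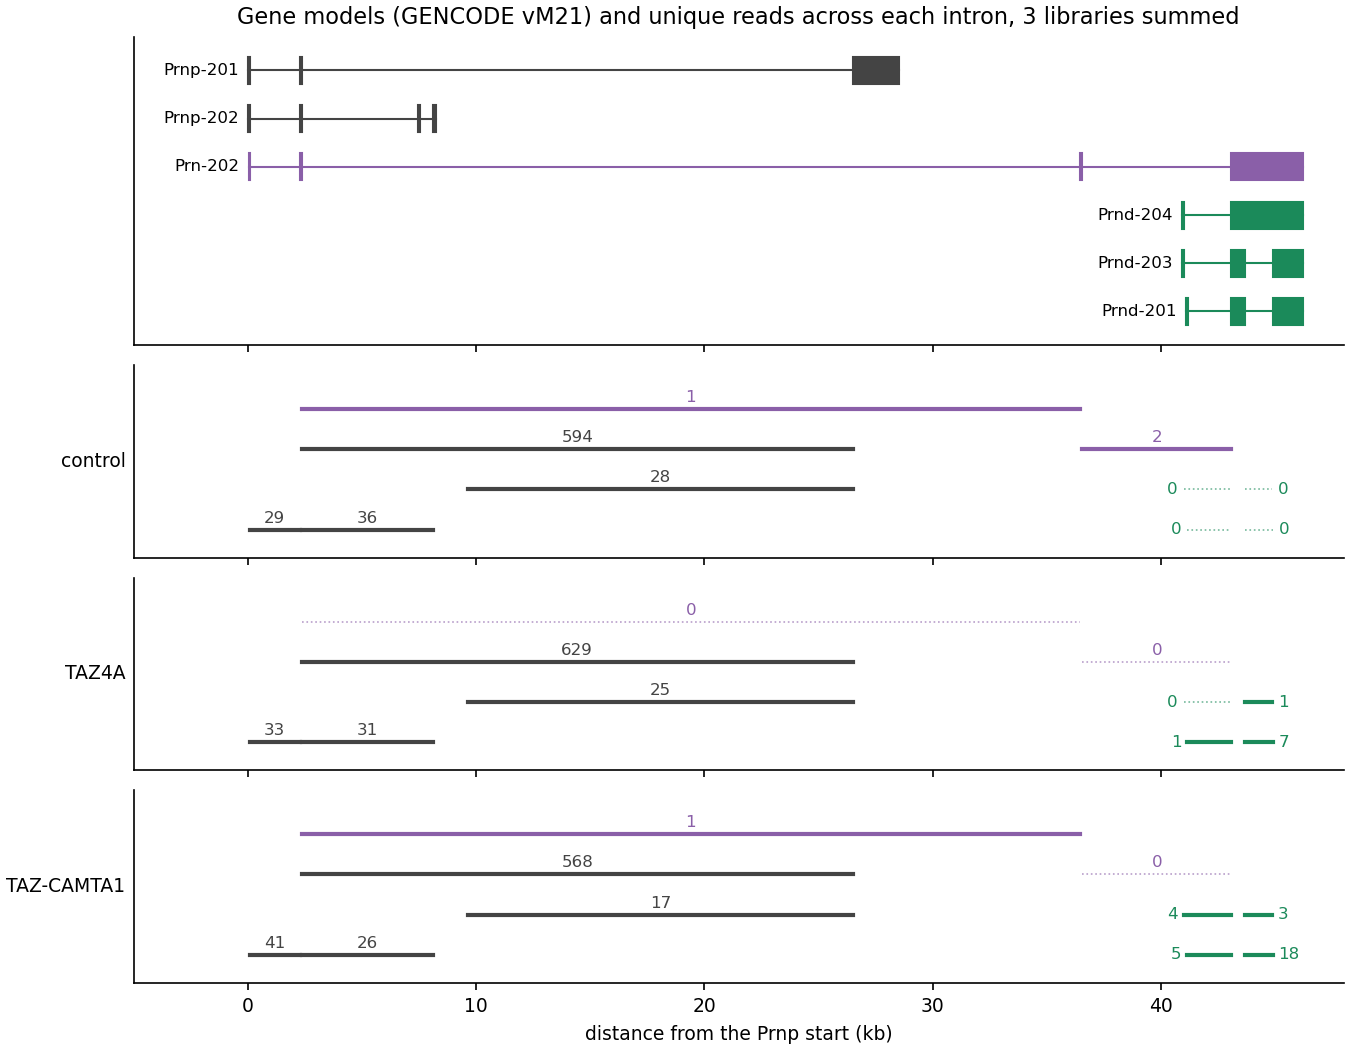
Top, exons of Prnp, Prn and Prnd transcripts by distance from the Prnp start in kb; below, for each group, each annotated intron as a line with the number of unique reads across it, summed over 3 libraries, and dotted where it is 0. Grey is Prnp, purple the read-through joints of Prn and green Prnd: the purple joints hold 0 to 2 reads in each group, and the green joints hold reads in TAZ4A and TAZ-CAMTA1 only.

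For the level of the gene, the joints from the Prnd first exons held fewer reads than the joint from Prnp exon 2 to its coding exon. The first joint of Prnp was low as well. The joints from the Prnd first exons gave 1.63 reads per 1000 Prnd reads as a mean of the TAZ-CAMTA1 libraries and 1.04 in TAZ4A. The joint from Prnp exon 2 to its coding exon gave 28.7 ± 5.61, 26.1 ± 3.69 and 24.1 ± 11.3 reads per 1000 Prnp reads in control, TAZ4A and TAZ-CAMTA1. TAZ-CAMTA1 replicate 2 had 12.1 per 1000, below the 22.9 to 34.8 of the other 8 libraries, and without it the TAZ-CAMTA1 mean was 30.1. The joint from Prnp exon 1 to exon 2, also near the start of its transcript, held 29, 33 and 41 unique reads in control, TAZ4A and TAZ-CAMTA1. These stood beside 21336, 24133 and 24345 Prnp reads summed over 3 libraries, so a low yield was not particular to Prnd. Why the joints differ in yield was not tested.

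The row of the read-through gene Prn also went up, from 9.21 ± 1.37 to 16.4 ± 0.796 and 66.9 ± 10.8 CPM, but it shares the Prnd coding and last exons. The first exons of Prnd, of 55 and 34 bases, are not in Prn. The difference between the Prn and the Prnd row is thus the reads on Prn exons outside Prnd, less any reads that lie only on a Prnd first exon, and it was 222, 241 and 254 reads in control. It was 285, 263 and 245 reads with TAZ4A. The TAZ-CAMTA1 libraries had 300, 123 and 289 such reads, with replicate 2 the low one. As CPM this remainder was 8.19 ± 1.53, 7.75 ± 0.693 and 8.31 ± 4.11, and the groups overlapped. Without replicate 2 the TAZ-CAMTA1 mean was 10.5 CPM. Reads only on Prnd first exons would lower it most where Prnd is high, by an amount not measured here. Reads equal in number to those of Prnd made up 11.4%, 52.9% and 88.1% of the Prn row as group means. The first 2 exons of Prn are those of Prnp, so the remainder includes reads of Prnp.

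**Figure D3:**
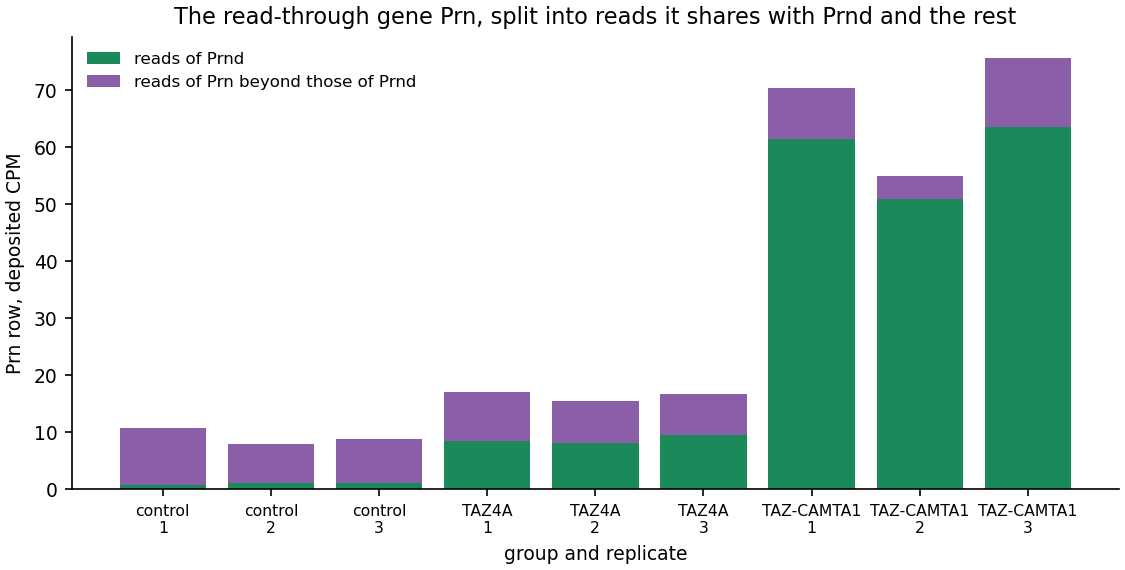
Deposited CPM of the Prn row in each of the 9 libraries (bars start at 0), divided into a part equal to the Prnd row (green) and the remainder (purple). The remainder, which includes reads on exons shared with Prnp, has group means of 8.19, 7.75 and 8.31 CPM. The green part goes from about 1.02 to 58.6 CPM.

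Within Prnd, the last intron, of 1238 bases at chr2:131953583-131954820, is kept as exon in Prnd-204 and spliced out in Prnd-203. Reads counted for Prnd-204 and not for Prnd-203 lie wholly inside it and numbered 13, 10 and 14 in control. With TAZ4A they numbered 81, 92 and 93, and the TAZ-CAMTA1 libraries had 626, 309 and 503. They were 30.0 ± 2.01% of the reads of Prnd-204 in TAZ4A and 27.6 ± 7.30% in TAZ-CAMTA1. In control they were 45.4 ± 23.8%, a mean raised by replicate 1, where 13 of 18 reads lay there. Reads wholly inside the intron, per base of it, were 0.671 ± 0.0652 times the Prnd-203 reads per base of its exons in TAZ4A. In TAZ-CAMTA1 they were 0.612 ± 0.209 times (0.730 without replicate 2). Reads that cross an edge of the intron count only for the exons, so this ratio understates coverage of the intron. Reads that splice it out numbered 0, 8 and 21 unique reads in control, TAZ4A and TAZ-CAMTA1, so the latter groups held reads of both kinds. The acceptor used by Prnd-203 took 7 and 18 of them and the acceptor of Prnd-202 took 1 and 3.

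Prnp splicing was measured as 3 shares in 3 comparisons, each tested two-sided. With 3 samples against 3 these 9 exact permutation tests cannot go below p = 0.1, so no difference of any size could pass 0.05. The smallest exact p was 0.2, and the smallest adjusted p (Benjamini-Hochberg) was 0.787. A donor inside the long Prnp intron took 4.48 ± 1.43%, 3.72 ± 1.10% and 2.71 ± 1.22% of unique reads into the Prnp coding exon in control, TAZ4A and TAZ-CAMTA1. A joint from Prnp exon 2 straight to the last exon of the short form Prnp-202 took 5.74 ± 2.07%, 4.69 ± 2.13% and 4.25 ± 0.894%. These are shares of its reads plus those from exon 2 to the coding exon. This joint skips the third exon of Prnp-202, of 28 bases. The joint into that exon held 1, 0 and 0 unique reads in the 3 groups, and the joint out of it to the last exon 1, 0 and 1. Reads joining exon 1 to exon 2 were 4.54 ± 2.03%, 5.04 ± 0.851% and 5.98 ± 2.75% of those plus the reads from exon 2 to the coding exon. The main joint held 103 to 236 reads per library, and the ranges of the groups overlapped for each share.

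The sequences before the starts are shown because the labelled constructs act through TEAD factors, with capitals on matches to GGAATG (TEAD), TGANTCA (AP-1) and TATAAA, searched on both strands. The first 2 are the 250 bases before the Prnp start (chr2:131909678-131909927) and before the first Prnd start (chr2:131950611-131950860). The third is the 121 bases between the first Prnd exon and the second start (chr2:131950916-131951036). All are plus strand, from RefSeq on GRCm38.

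Prnp upstream: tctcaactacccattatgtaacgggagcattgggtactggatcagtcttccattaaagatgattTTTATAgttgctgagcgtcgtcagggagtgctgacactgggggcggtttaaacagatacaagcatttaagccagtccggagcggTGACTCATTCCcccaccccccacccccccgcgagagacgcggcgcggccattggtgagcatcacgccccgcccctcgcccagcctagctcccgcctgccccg
Prnd first start upstream: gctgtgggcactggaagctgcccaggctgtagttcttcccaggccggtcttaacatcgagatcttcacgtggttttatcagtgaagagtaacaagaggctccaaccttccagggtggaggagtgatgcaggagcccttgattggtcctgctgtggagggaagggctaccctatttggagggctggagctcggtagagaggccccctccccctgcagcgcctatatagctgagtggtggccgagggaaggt
Prnd between the starts: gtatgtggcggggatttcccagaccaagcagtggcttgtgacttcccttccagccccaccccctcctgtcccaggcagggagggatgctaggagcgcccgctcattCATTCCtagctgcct

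GGAATG was found on the minus strand at −97 to −92 of Prnp, where it overlaps TGANTCA at −102 to −96, and at −15 to −10 of the second Prnd start. TATAAA was found on the minus strand at −186 to −181 of Prnp. None of the 3 motifs was found, as spelled, in the 250 bases before the first Prnd start. That window holds tatatag near its end, and looser forms of TATAAA were not searched. Of 32817 mouse promoters of 250 bases, 12.6% hold GGAATG, 6.75% TGANTCA and 12.4% TATAAA. The window between the Prnd starts has only 121 bases and lies between 2 starts, so these shares and the GC median below are not its background. GC content was 58.8%, 58.0% and 62.0% for the 3 windows, against a median of 52.4% for all promoters. A match describes letters only, and binding was not measured.

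Around the locus, the annotation lists 22 other genes within 500 kb, of which 7 could be tested, 8 fell below the filter on low values and 7 were absent from the gene table. Of the 7, 0 rose and 2 fell in TAZ4A against control, where 12.9% of all genes rose and 11.3% fell (limma, adjusted p). In TAZ-CAMTA1 against control 2 rose and 1 fell, where 16.1% of all genes rose and 14.9% fell. In TAZ-CAMTA1 against TAZ4A 4 rose and 0 fell, where 18.4% rose and 18.3% fell. The median log2 difference of the 7 was −0.29, 0.23 and 0.30, beside −0.01, −0.04 and −0.03 over all genes. None of the 7 changed by as much as Prnd in either comparison with control. Prnd was chosen for its level over these samples and ranked 83rd and 2nd of 13346 genes there. Almost any 7 genes would have met this, so it does not set the neighbours apart.

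The nearest tested gene, Rassf2, lies 33.3 kb beyond Prnd on the minus strand and encodes a Ras-association protein that binds the Hippo kinases MST1 and MST2. It measured 11.6, 9.42 and 10.6 CPM in control, and 12.8, 11.5 and 12.6 CPM with TAZ4A. With TAZ-CAMTA1 it measured 32.2, 20.9 and 30.9 CPM, all above the other 6 libraries. Rassf2 rose by a log2 difference of 1.35 ± 0.16 (SE) in TAZ-CAMTA1 against control (limma adjusted p = 0.000437) and of 1.13 ± 0.16 against TAZ4A (adjusted p = 0.000842). Against control, TAZ4A differed by 0.22 ± 0.16 (limma adjusted p = 0.398, and 0.0226 without TAZ-CAMTA1 replicate 2). Rassf2 therefore shared with Prnd its highest level in TAZ-CAMTA1, but not a clear step between control and TAZ4A.

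Tmem230, a membrane protein of vesicle traffic 283 kb beyond Prnd, went from 11.6 ± 0.333 to 13.3 ± 0.574 and 18.0 ± 1.75 CPM. It rose in TAZ-CAMTA1 against control (log2 0.61 ± 0.09, limma adjusted p = 0.00116) and against TAZ4A (log2 0.42, adjusted p = 0.00614). Smox, spermine oxidase, on the other side of Prnp, rose only slightly in TAZ-CAMTA1 against TAZ4A (log2 0.30, limma adjusted p = 0.0224). Leaving out any TAZ4A library ended that call (adjusted p up to 0.0816). AV099323, a noncoding gene that starts beside Pcna on the other strand, rose in the same comparison (log2 0.75, limma adjusted p = 0.0113). The annotated intervals of the pair do not overlap, and Pcna differed by −0.01 in that comparison.

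Pcna, the sliding clamp of DNA replication, went from 392 ± 13.2 CPM in control to 317 ± 1.09 in TAZ4A and 317 ± 39.4 in TAZ-CAMTA1. It fell in both comparisons with control (log2 −0.30 and −0.31, limma adjusted p = 0.0433 and 0.0326). Cds2, a CDP-diacylglycerol synthase, fell in TAZ4A against control (log2 −0.54, limma adjusted p = 0.0226). Leaving out any single control or TAZ4A library ended both of the TAZ4A calls, and leaving out TAZ-CAMTA1 replicate 2 raised the number of neighbours called from 2 to 6, in a fit where 56.4% of all genes tested passed. Pcna against control in TAZ-CAMTA1 was called in 1 of 9 fits with a library left out. Slc23a2, a vitamin C transporter, was called in no comparison with all 9 libraries, and its TAZ-CAMTA1 values were 122, 54.7 and 123 CPM, with replicate 2 the low one. Without that library it fell in TAZ4A against control (log2 −0.41, limma adjusted p = 7.31e-06), and its difference of TAZ-CAMTA1 from TAZ4A went from −0.09 to a rise of 0.30 (adjusted p = 0.000447).

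**Figure D4:**
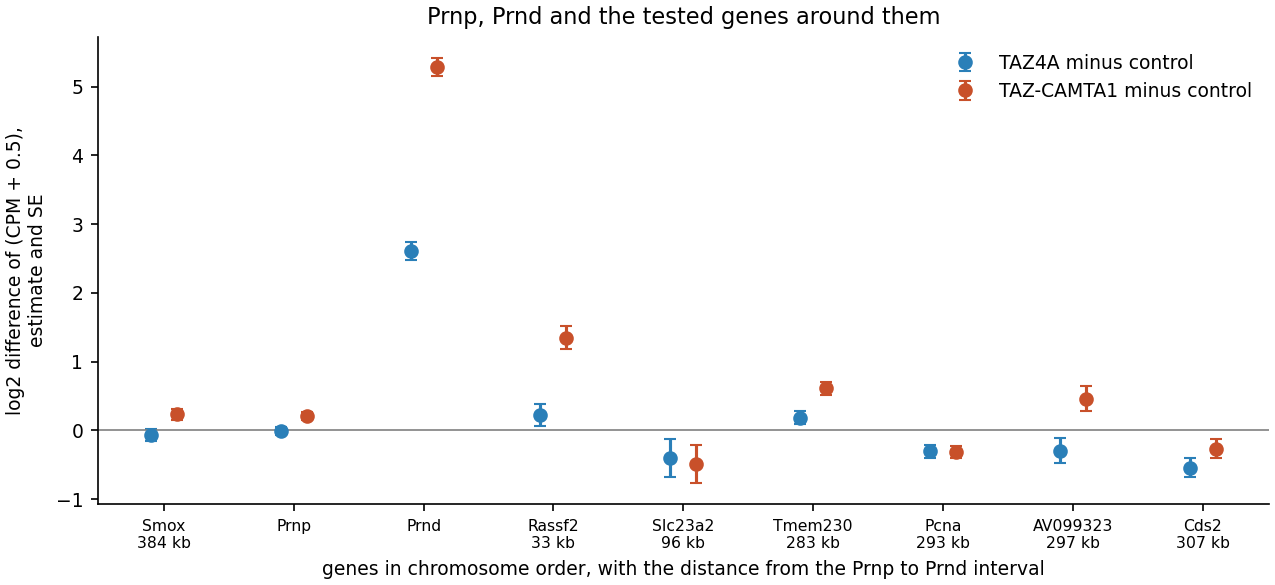
Fitted log2 difference of (CPM + 0.5) against control, with its SE, for Prnp, Prnd and the 7 tested genes around them, in chromosome order; the number under each name is its distance from the locus in kb. Prnd lies at 2.60 and 5.28, the next highest is Rassf2 at 1.35 in TAZ-CAMTA1, and the other genes lie between −0.54 and 0.61.

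Among proteins reported to bind or process the prion protein, 15 of 17 listed were in the table and 13 were tested. In TAZ4A against control 2 rose and 1 fell, in TAZ-CAMTA1 against control 3 rose and 2 fell, and in TAZ-CAMTA1 against TAZ4A 2 rose and 3 fell. These are 23.1%, 38.5% and 38.5% of those tested, near the 24.2%, 31% and 36.6% of all genes that passed. The median log2 difference was 0.06, −0.21 and 0.03, beside −0.01, −0.04 and −0.03 over all genes. Cav1, the coat protein of caveolae, rose in TAZ-CAMTA1 from 958 ± 20.1 to 1657 ± 145 CPM (log2 0.79, limma adjusted p = 0.000171). Fyn, the Src-family kinase that signals downstream of the prion protein, rose from 101 ± 1.16 to 148 ± 12.0 CPM in TAZ-CAMTA1 (log2 0.54, limma adjusted p = 0.00107) and fell to 80.3 ± 2.51 CPM in TAZ4A (log2 −0.33, adjusted p = 0.0134). Ncam1, a cell adhesion molecule, rose in both but stayed low, at 0.104, 0.743 and 1.02 CPM. Its control mean was near the worth of 3 reads, and it met the filter on low values only through the TAZ4A and TAZ-CAMTA1 libraries. A rise against control was therefore favoured in advance, and Ncam1 is among the 2 and 3 counted as risen. The chaperones Stip1 (log2 −0.36) and Canx (log2 −0.55) fell in TAZ-CAMTA1 against control (limma adjusted p = 0.00499 and 0.00257). Bace1, a protease, rose in TAZ4A (log2 0.53, limma adjusted p = 0.0293), and Calr, a chaperone, fell in TAZ-CAMTA1 against TAZ4A (log2 −0.45, adjusted p = 0.0325). Of the 9 limma fits with a library left out, 5 kept the fall of Fyn in TAZ4A (adjusted p up to 0.0699 without TAZ4A replicate 2), 3 the rise of Bace1 (up to 0.11 without TAZ4A replicate 3) and 1 the fall of Calr (up to 0.0928 without TAZ4A replicate 1). Without TAZ-CAMTA1 replicate 2 the number called was 11, 8 and 10 of 13 in the 3 comparisons, where 56.4%, 58.5% and 60.4% of all genes passed. In TAZ4A against control it was 1 without control replicate 1 or 2 or TAZ4A replicate 2 or 3.

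Both proteins need a GPI anchor, and 29 of 31 listed genes of its synthesis and remodelling were tested. In TAZ4A against control 0 rose and 4 fell, in TAZ-CAMTA1 against control 1 rose and 6 fell, and in TAZ-CAMTA1 against TAZ4A 4 rose and 3 fell. These are 13.8%, 24.1% and 24.1% of those tested, below the 24.2%, 31% and 36.6% of all genes that passed. Medians were −0.07, −0.10 and 0.05. Mppe1, which removes a side group from the anchor during export, fell in both, from 27.3 ± 1.64 to 13.2 ± 0.462 CPM in TAZ4A and 17.2 ± 0.702 CPM in TAZ-CAMTA1 (log2 −1.02 and −0.65, limma adjusted p = 2.29e-05 and 0.000389). Pigq, of the complex that starts the anchor, fell in both as well (log2 −0.47 and −0.36, limma adjusted p = 0.00325 and 0.0116). Pigw, an acyltransferase, fell in TAZ-CAMTA1 (log2 −0.64, limma adjusted p = 0.0109). Pigh rose in it by 0.30 (adjusted p = 0.0404), a call that held in 2 of 9 limma fits with a library left out. The counts called ran from 2 to 13, 3 to 14 and 3 to 15 when single libraries were left out, the highest without TAZ-CAMTA1 replicate 2, where 56.4%, 58.5% and 60.4% of all genes passed.

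Other GPI-anchored surface proteins moved in both directions, and 18 of 23 listed were tested. In TAZ4A against control 6 rose and 5 fell, in TAZ-CAMTA1 against control 8 rose and 3 fell, and in TAZ-CAMTA1 against TAZ4A 7 rose and 4 fell. These are 61.1% of those tested in each comparison, where 24.2%, 31% and 36.6% of all genes passed, and the medians were 0.19, 0.25 and −0.02. Gpihbp1, which carries lipoprotein lipase across capillary endothelium, rose from 84.8 ± 8.37 to 312 ± 119 CPM in TAZ-CAMTA1 (log2 1.81, limma adjusted p = 0.000522), or 243 CPM without replicate 2. In TAZ4A it fell to 27.6 ± 0.837 CPM (log2 −1.60, limma adjusted p = 0.000954). Gpc4, a heparan sulfate proteoglycan, rose in both, to 74.6 ± 1.80 CPM in TAZ4A and 20.1 ± 1.68 in TAZ-CAMTA1 from 11.6 ± 0.340 CPM (log2 2.64 and 0.77, limma adjusted p = 1.1e-07 and 0.000193). The complement inhibitors Cd55 (log2 1.21 and 0.88) and Cd59a (log2 0.42 and 1.03) rose in both (limma adjusted p = 0.000271, 0.00168, 0.0309 and 0.000343). Cd59a, at 6.59, 8.98 and 14.0 CPM, had the same order of groups as Prnd, with smaller steps, and its TAZ4A call held in 4 of 9 limma fits with a library left out (adjusted p up to 0.12 without TAZ4A replicate 2). Without TAZ-CAMTA1 replicate 2, 17 of 18 were called in TAZ4A against control, where 56.4% of all genes passed. The lowest count there with a library left out was 8. The list was chosen with earlier results of these data known, so its share beside that of all genes is a description.

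Of 15 listed genes of brain endothelium, the tissue in which Prnd is known from newborn mice, 5 were tested. In TAZ4A against control 3 rose and 1 fell, in TAZ-CAMTA1 against control 1 rose and 1 fell, and in TAZ-CAMTA1 against TAZ4A 1 rose and 2 fell, with medians of 0.63, 0.29 and −0.39. These are 80%, 40% and 60% of only 5 genes, where 24.2%, 31% and 36.6% of all genes passed. The glucose transporter Slc2a1 rose in TAZ-CAMTA1 from 469 ± 13.5 to 1042 ± 42.4 CPM (log2 1.15, limma adjusted p = 8.22e-06) and was at 386 ± 5.19 CPM in TAZ4A (log2 −0.28, adjusted p = 0.0148). The amino acid transporter Slc7a5 rose in TAZ4A (log2 0.63) and fell in TAZ-CAMTA1 (log2 −0.65), with limma adjusted p = 0.000418 and 0.000402. The efflux pump Abcb1a (log2 0.75) and the tight junction protein Ocln (log2 0.68) rose in TAZ4A (limma adjusted p = 0.00205 and 0.0108). Without TAZ4A replicate 2, 2 of the 5 were called in TAZ4A against control, with Ocln at 0.0502 and Slc2a1 at 0.0674, and without TAZ-CAMTA1 replicate 2, 4 were called in TAZ-CAMTA1 against control, where 58.5% of all genes passed. The fall of Slc2a1 in TAZ4A held in 4 of 9 such limma fits.

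Over the 9 libraries, the genes whose log2(CPM + 0.5) followed Prnd most closely among 12125 genes were Clmp (Pearson r = 0.996), Cx3cl1 (0.995), D830026I12Rik (0.995), Sorcs2 (0.993) and Sirpa (0.993). The points fall into 3 groups that share the same constructs and libraries, so r is a description. Clmp went from 18.4 to 27.7 and 39.7 CPM, and Sorcs2 from 0.446 to 2.41 and 8.43 CPM, so their steps were smaller than those of Prnd. Nearest to Prnp were Rnf157 (r = 0.989), Sema7a (0.988), Nos2 (0.987), Mxi1 (0.987) and Cyp2d22 (0.986). Sema7a was at 2.94, 2.45 and 24.0 CPM and Mxi1 at 39.0, 40.0 and 102 CPM, both highest in TAZ-CAMTA1, with larger steps than Prnp.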

How the data were processed

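Poly-A RNA of 9 samples was sequenced after a stranded preparation, per the labels' protocols. Per the submitters' processing notes, bcl2fastq, FastQC, STAR, featureCounts and edgeR were used on mm10; versions and settings are not given in the sources used here. The deposited gene signal, named CPM by the authors, is reads divided by a scaled library size; every value (100%, tolerance 0.01) was a whole multiple of 1 read, so reads were recovered. The design assumed CPM, and the values were entered as signal because library sums differ. TPM values were scaled for length by the authors. The log2 fold changes quoted as the authors' come from their deposited table. Deposited junction files hold counts of unique and multiply mapped reads per intron. Counting by strand is not stated. Exons, coordinates and symbols (23439 of 23744 identifiers) came from GENCODE vM21 on GRCm38, the build of mm10; promoters came from RefSeq. Exon structures of vM4, the authors' annotation per the file names, were taken as those of vM21. At Prnp the junctions flagged as annotated in the deposited files differ from vM21. The joint from exon 2 to the last Prnp-202 exon and the internal donor are flagged and are not in vM21. The joints on both sides of the third Prnp-202 exon are in vM21 and are not flagged. The named Prn and Prnd joints are in both. The number of per-sample columns without a sample was 0.

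Groups followed the sample titles. Genes with at least 0.5 CPM in 3 libraries (13346) were tested with limma 3.58.1 in R 4.3.3, trend and robust, on log2(CPM + 0.5), with all 9 libraries in 1 fit, 6 residual degrees of freedom, 3 contrasts and Benjamini-Hochberg adjustment over all genes. On the recovered counts, edgeR 4.0.16 (quasi-likelihood) called 3238, 4051 and 4864 genes, against 3225, 4140 and 4890 for limma. DESeq2 1.42.0 on the same counts called more, 3831, 4762 and 5594. In simulated TAZ-CAMTA1 against control data with 13346 genes, limma recovered 94.5% of 200 genes changed 2-fold and 100% of those changed 4-fold, with 16 and 25 false calls. Whether the same shares would be recovered in the deposited libraries, where TAZ-CAMTA1 replicate 2 stood apart, was not tested. Junction shares have 95% Wilson intervals. The members, the gene lists and the alternatives were chosen with earlier results of these data known. Named genes are Prnd, Prnp, the tested neighbours within 500 kb, up to 4 called members per list, direction and comparison with the largest change (fewer are printed), the 5 genes most correlated with each member among those with a mean of at least 1 CPM, Wwtr1 and Camta1.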

Additional observations from a re-analysis of the deposited data

How the results depend on the processing

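For Prnd the direction held under every alternative run. The log2 difference of TAZ4A against control was 2.99 and 1.83 with pseudocounts of 0.1 and 2, 2.44 with quantile normalization, 3.07 with edgeR and 3.08 with DESeq2. That of TAZ-CAMTA1 against control was 5.72 and 4.32 with those pseudocounts, 5.85 with edgeR and 5.84 with DESeq2, and that of TAZ-CAMTA1 against TAZ4A was 2.50 with a pseudocount of 2. Prnp in TAZ-CAMTA1 was 0.31 above control with quantile normalization and 0.13 above TAZ4A in TPM.

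In TAZ4A against control, 1 neighbour was called in TPM, with equal library sums, with quantile normalization, without a filter on low values and with edgeR. In the same comparison, the 6 compared libraries alone and library quality weights gave 6 neighbours, 11 prion protein partners, 14 GPI synthesis genes and 17 other GPI-anchored proteins each. TPM gave 1 partner and DESeq2 gave 5, and TPM and no filter gave 2 GPI synthesis genes. In TAZ-CAMTA1 against control, quality weights gave 8 partners, 14 GPI synthesis genes and 4 brain endothelial genes. There TPM and no filter gave 4 GPI synthesis genes, the 6 libraries alone 2, and DESeq2 5 neighbours. In TAZ-CAMTA1 against TAZ4A, quality weights gave 7 neighbours, 10 partners and 15 GPI synthesis genes, the 6 libraries alone 4 GPI synthesis genes, and no filter 5 brain endothelial genes. The tests on recovered reads and the quality weights were added after seeing the data.

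Leaving out 1 library at a time gave 0 to 6, 2 to 4 and 3 to 7 neighbours in the 3 comparisons, in the order above. It gave 1 to 11, 5 to 8 and 4 to 10 partners, and 2 to 13, 3 to 14 and 3 to 15 GPI synthesis genes. It gave 8 to 17 other GPI-anchored proteins in the first comparison, and 2 to 4 brain endothelial genes in each of the first and second. Over all genes, 7450, 7728 and 7975 were called without TAZ-CAMTA1 replicate 2, 7712, 7396 and 8412 with quality weights, and 7535, 2527 and 3430 with the 6 libraries alone. Without single TAZ4A libraries, 2001 to 2062 genes were called in TAZ4A against control. The cause was not tested. Differences in Prnp splicing shares changed sign in some of these fits. That of the internal donor ran from −1.31 to 0.067 points in TAZ4A against control. That of the joint to the last Prnp-202 exon ran from −2.28 to 0.054 there and −1.14 to 0.790 in TAZ-CAMTA1 against TAZ4A. In the same comparisons, that of exon 1 to 2 ran from −0.453 to 1.56 and −0.029 to 2.51.

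The labels do not say that replicate numbers pair the samples, and the data do not settle it: same-numbered deviations correlated at −0.28 to 0.464, and 6 of 9 were best with their own number. With the number as a replicate block, 1 neighbour was called in TAZ4A against control, and all genes called were 3056, 4015 and 4801. The share of Prnd reads from its own first exons rests on 2, 1 and 9 unique junction reads.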
